A study of Rattus norvegicus with 16 samples.

Results

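Supraspinatus muscle taken 30 days after injury was compared with supraspinatus muscle of unoperated rats, across all genes of an RNA sequencing study. The comparison rests on 8 of the study's 16 libraries, 4 at 30 days and 4 at 0 days, chosen by the time given in each label. The rats were of the outbred Sprague Dawley strain. Injured rats had a full-thickness tear of the supraspinatus, a shoulder muscle of the rotator cuff, combined with suprascapular neurectomy, which interrupts the muscle's motor nerve, and both shoulders were operated. Controls at 0 days had no operation, so tear, neurectomy, surgery and 30 days of elapsed time all separate the groups and cannot be told apart. Groups taken at 10 and 60 days after the same injury, with 4 libraries each, are used below to place the 30-day values in time. Age, sex and the animal behind each library are not given in the sources used here, and p-values therefore measure only the spread between these samples, which may in part be technical. The libraries carry a trailing L or R in their titles, whose meaning is not stated.

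A skeletal muscle fibre that loses its nerve and its mechanical load atrophies. In innervated adult fibres, electrical activity keeps acetylcholine receptor genes silent away from the synapse, and after denervation myogenin and related factors switch those genes on along the whole fibre and bring back embryonic contractile isoforms. In the rotator cuff, a torn and denervated muscle is also known for fibrosis, for infiltration by fat and for a poor return of function after repair.

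The deposited table lists 17147 genes, of which 11658 had enough fragments to be tested. Each unoperated library held 22.96 to 35.7 M fragments (M, mega) and each 30-day library 22.9 to 39.9 M, and these totals did not separate the groups (exact permutation test p 0.8). The 10 most abundant genes held 24.6% ± 0.604 (SD, n = 4) of the fragments at 0 days and 18.4% ± 1.70 at 30 days, with no overlap (two-sided exact permutation p 0.0286, the smallest that 4 against 4 allows, adjusted p 0.0381 over 4 measures). At 0 days those places held contractile and glycolytic genes, the calcium pump gene Atp2a1 and the creatine kinase gene Ckm, and Mb and H19 were among the genes that had entered by 30 days. Acta1, skeletal alpha-actin, led with 4.78% of fragments at 0 days and 2.95% at 30 days, and the defining markers of the labelled tissue were thus abundant in both groups. Library 1 of 30 days stood somewhat apart. Its Pearson correlation with the unoperated libraries was 0.927 to 0.931, against 0.940 to 0.953 for the other 3. The counts of 30-day highs and lows and of granulocyte and mast cell genes are given with and without it. Other shifts of list counts and medians without it are not all given. The title of library 1 ends in R and those of the other 3 in L, while the unoperated titles hold 2 of each. Pairs of replicates exceeded sampling noise, the chi-square per gene being 17.4 to 33.95 at 0 days and 30.2 to 102 at 30 days. Levels are given in CPM, a gene's fragments per 1 M of the library's total scaled by TMM factors, which are not divided by gene length and are therefore compared only within a gene.

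A gene is called higher or lower where edgeR's adjusted p was under 0.05. By this rule 64.6% of the genes tested were called, 3934 higher (33.7%) and 3599 lower (30.9%). A rise of at least 2-fold was estimated for 1622 genes (13.9%) and a fall of at least 2-fold for 933 genes (8%). Large changes were more often rises, with 98 genes at least 16-fold higher and 11 at least 16-fold lower. The 4 libraries of each group did not overlap for 60.2% of the genes tested. Counts of list members below are to be read against these shares over all genes. The median log2 fold change over all genes tested was 0.05. Scaling by library totals alone instead of TMM factors moved that median to 0.54 and gave 7362 higher and 1392 lower calls (84.1% higher against 52.2%), and upper-quartile factors gave 62.2% higher. Fold changes below thus stand against the typical gene. A direction that library totals turn is marked for the lists and for the genes followed under the alternatives. In bulk muscle, fewer cells of a type and less RNA per cell cannot be told apart.

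**Figure D1:**
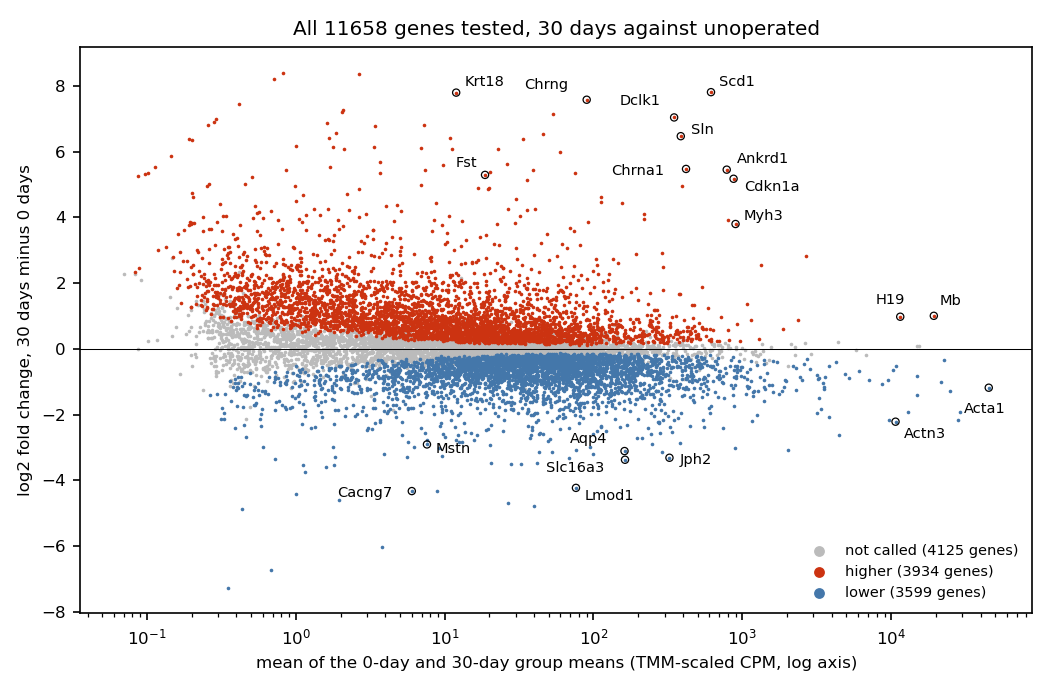
Log2 fold change of each tested gene at 30 days against 0 days (vertical axis) against the mean of both group means in TMM-scaled CPM (horizontal log axis), with called genes in color (higher in red, lower in blue). The 3934 genes called higher reach further from 0 than the 3599 called lower, and Scd1, Chrng and Krt18 stand near the top.

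Genes of the neuromuscular synapse were among the largest rises. Of the 19 tested acetylcholine receptor and synapse genes, 11 rose and 3 fell, with a median log2 fold change of 1.28. The fetal receptor subunit Chrng, which adult muscle normally replaces with Chrne, stood at 0.956, 0.917, 0.892 and 0.958 CPM in the unoperated libraries and 372, 77.1, 71.8 and 195 CPM at 30 days (log2 7.58 ± 0.59 (SE), adjusted p 3.89e-08). All unoperated libraries were below 1 CPM, and libraries 1 and 4 of 30 days were the highest. Chrna1, the alpha subunit that binds acetylcholine, stood at 19.7, 20.8, 19 and 13.9 CPM in the unoperated libraries and 1161, 616, 465 and 1031 CPM at 30 days (log2 5.48 ± 0.38, adjusted p 1.23e-08). Chrnd, the delta subunit, stood at 26.5, 33.7, 22.9 and 21.9 CPM in the unoperated libraries and 664, 281, 283 and 415 CPM at 30 days (log2 3.96 ± 0.28, adjusted p 1.51e-08). For both subunits the groups lay far apart, with library 3 of 30 days the lowest for Chrna1. The adult subunit Chrne rose too, from 21.8 ± 3.69 to 73.7 ± 23.6 CPM (SD, n = 4 each; log2 1.76 ± 0.24, adjusted p 1.08e-05), and so did Musk, the receptor kinase that organises the synapse (log2 3.21). Scn4a, the adult muscle sodium channel, fell (log2 -0.93). Kcnn3, a calcium-activated potassium channel of denervated fibres, rose by log2 1.86. Ache, the enzyme that clears acetylcholine, stood at 109, 111, 104 and 94 CPM in the unoperated libraries and 26.1, 55.4, 41.5 and 42 CPM at 30 days and fell (log2 -1.34). Dok7, the adaptor of MuSK, fell slightly (log2 -0.55), a call lost with library totals (-0.07).

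The receptor promoters are shown because their subunits rose together. The 250 bases before each transcription start were taken from RefSeq on the rat assembly GRCr8, which is not the rn5 build of the deposited counts, and each runs 5′ to 3′ on the gene's own strand. Capitals mark CAGCTG, a form of the E-box that myogenic factors such as myogenin bind. This motif reads the same on both strands, and overlapped no other motif that was searched. Chrna1 lies on chr3:78877354-78877603 (minus strand), Chrng on chr9:95325734-95325983 (plus strand) and Chrnd on chr9:95310066-95310315 (plus strand).
Chrna1: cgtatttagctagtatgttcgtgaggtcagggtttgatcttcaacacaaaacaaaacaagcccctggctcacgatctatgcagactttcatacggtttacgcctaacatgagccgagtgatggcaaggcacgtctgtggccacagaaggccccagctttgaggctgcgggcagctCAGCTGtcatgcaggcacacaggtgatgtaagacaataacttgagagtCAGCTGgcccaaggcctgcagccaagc
Chrng: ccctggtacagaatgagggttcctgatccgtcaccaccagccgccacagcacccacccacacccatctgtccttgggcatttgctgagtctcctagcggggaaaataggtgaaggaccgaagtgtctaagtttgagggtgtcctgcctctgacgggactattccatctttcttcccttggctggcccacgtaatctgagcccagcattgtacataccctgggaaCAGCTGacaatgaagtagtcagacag
Chrnd: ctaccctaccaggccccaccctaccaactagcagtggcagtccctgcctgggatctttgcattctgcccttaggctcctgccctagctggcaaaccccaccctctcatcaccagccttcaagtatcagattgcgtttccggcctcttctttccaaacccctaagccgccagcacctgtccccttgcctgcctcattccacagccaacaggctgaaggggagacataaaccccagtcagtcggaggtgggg
The Chrna1 window holds 2 such motifs, the first bases of which lie 75 and 27 bases before the start, and the Chrng window holds 1, at 26 bases before it. The Chrnd window holds 0 of this form, and Chrnd rose 15.6-fold in its mean. E-box forms other than CAGCTG and CACGTG were not searched or marked. An example is cacctg, which occurs in the Chrnd window, and which occurs as its reverse complement caggtg in the Chrna1 window. Of the 19 synapse genes tested, 13 matched a promoter by symbol, and 7 of these hold CAGCTG: Chrna1, Chrng, Chrnb1, Chrne and Musk, which rose, Scn4a, which fell, and Etv5, which was not called (log2 -0.11, and 0.39 with library totals). Over all 33469 promoters of the table, 11.97% hold the motif in a window of this length. CATTCC, the MCAT site of TEAD factors (or GGAATG on the other strand), was found in 4 of the 13 and in 12.06% of all promoters. The clock E-box CACGTG was found in 1 of the 13 and in 5.59% of all. A match is a description of these letters only.

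The factors and signals that respond to denervation moved with the receptors. Of the 17 tested denervation signalling and transcription factors, 11 rose and 3 fell (median log2 1.18). Myog, encoding myogenin, stood at 19.6, 28.3, 25.5 and 21.6 CPM in the unoperated libraries and 505, 341, 379 and 419.6 CPM at 30 days (log2 4.11 ± 0.16, adjusted p 2.77e-11). Its groups did not come near each other. Gadd45a, a stress protein that is induced in denervated muscle, stood at 30, 22.4, 18.4 and 26.4 CPM in the unoperated libraries and 1149, 667, 534 and 687 CPM at 30 days (log2 4.97 ± 0.25, adjusted p 6.41e-10). Runx1, a transcription factor that preserves denervated fibres, rose by log2 4.26, and Myod1, the myogenic determination factor, by log2 1.58. The activity-induced nuclear receptors moved the other way, with Nr4a1 falling from 419.9 ± 203 to 70.1 ± 37 CPM (SD, n = 4 each; log2 -2.58 ± 0.55, adjusted p 0.000866) and Nr4a3 (log2 -2.98). Hdac9, a deacetylase that is repressed when activity is lost, was lower (log2 -1.21). Atf3, a stress-induced factor, was 57.4 ± 40.4 CPM at 0 days and 39.6 ± 25 CPM at 30 days (SD, n = 4) and was not called.

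Cyclin-dependent kinase inhibitors took the largest rises among the 28 tested cell cycle genes, of which 16 rose and 3 fell (median log2 0.73), or 26 higher and 1 lower, median 1.23 with library totals. Requiring a mean of at least 1 CPM left 10 higher and 1 lower, and the lower count was also 1 without unoperated library 2 or 3 or library 2 or 4 of 30 days. Cdkn1a, the p21 inhibitor, stood at 58.4, 54.7, 42.7 and 31.9 CPM in the unoperated libraries and 1819, 1679, 1421 and 1873 CPM at 30 days (log2 5.18 ± 0.31, adjusted p 3.01e-09). No library of 30 days came near a control. Cdkn2b and Cdkn2a, the inhibitors p15 and p16, rose by log2 3.19 and 3.18, although Cdkn2a reached only 1.38 ± 0.43 CPM. The proliferation markers Mki67 (1.94 ± 0.155 to 4.69 ± 0.194 CPM) and Top2a (1 ± 0.387 to 2.63 ± 0.266 CPM) rose as well, by log2 1.27 and 1.36. Ccnd2, a cyclin of early G1 phase, fell (log2 -1.21), and it was the 1 member still lower with library totals (-0.73). Not every inhibitor rose, since Cdkn1b, the inhibitor p27, was called slightly lower with TMM factors (log2 -0.22).

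**Figure D2:**
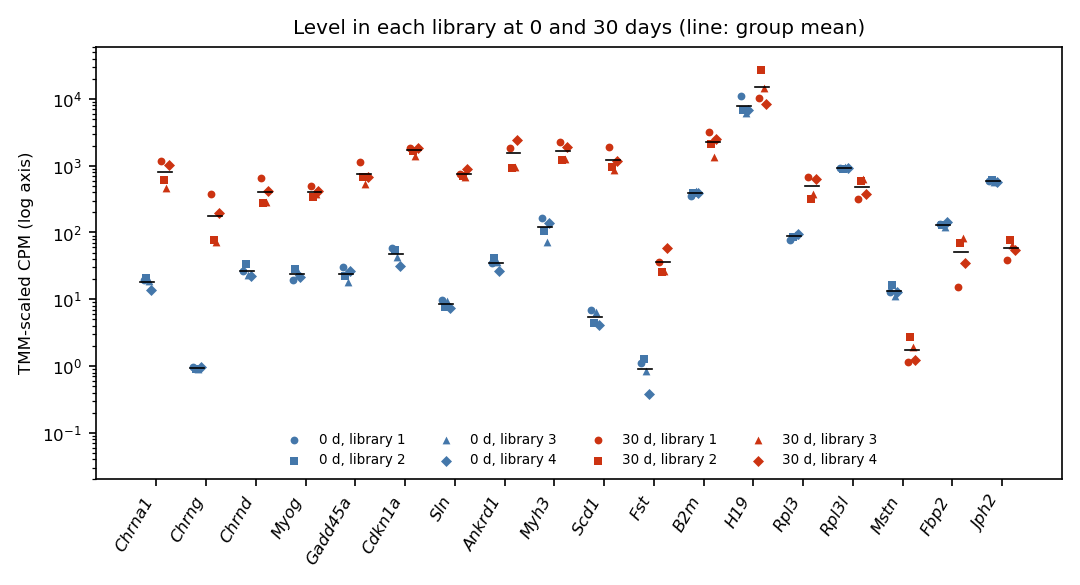
TMM-scaled CPM (log axis) of 18 genes in each library of 0 days (blue) and 30 days (red), with lines at the group means and a symbol for each library number, which names a library and pairs none. The genes were chosen after their values were seen, and only H19 shows overlapping groups.

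Most muscle fibre structural genes fell, while most but not all developmental contractile genes rose. Of the 14 tested muscle fibre structural genes, 11 fell and 0 rose (median log2 -0.84), against 3 higher and 8 lower, median -0.35 with library totals. Acta1 fell from 62598 ± 2771 to 27623 ± 5603 CPM (SD, n = 4 each; log2 -1.18 ± 0.17, adjusted p 1.79e-05). The fast-fibre genes Actn3, an anchor of the Z-disc, and Mybpc2, a myosin-binding protein, fell further (log2 -2.21 and -2.61). Actn3 stood at 17519.9, 17898, 16748 and 18079 CPM in the unoperated libraries and 2499.6, 4069.7, 5018 and 3553 CPM at 30 days, with no overlap. Myoz1, a Z-disc protein that binds calcineurin, fell (log2 -1.82). Pvalb, the calcium buffer of fast fibres, had a log2 fold change of -0.18 and was not called, with the sign turned by library totals (0.31).

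Among the 11 tested slow fibre genes 4 fell and 0 rose (median log2 -0.35), a direction that library totals turned (4 higher and 2 lower, median 0.14). Atp2a2, the slow-fibre calcium pump, fell from 1921 ± 537 to 869 ± 122 CPM (SD, n = 4 each; log2 -1.14 ± 0.21, adjusted p 0.0001704), and Tpm3, slow tropomyosin (log2 -1.15). With TMM factors neither list of adult isoforms held a rise.

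Developmental contractile genes rose in 5 of 7 cases and none fell (median log2 3.82). Embryonic myosin Myh3 stood at 163, 107, 71.2 and 141 CPM in the unoperated libraries and 2306, 1227, 1258 and 1921 CPM at 30 days. Every library of 30 days lay far above every control. Actc1, cardiac alpha-actin, rose from 13.7 ± 1.38 to 296 ± 172 CPM (SD, n = 4 each; log2 4.43 ± 0.45, adjusted p 5.81e-07). Embryonic light chain Myl4 rose by log2 3.83 and cardiac troponin Tnnt2 by log2 3.82. Mybph, a relative of the myosin-binding C proteins, stood at 163, 84.5, 75.5 and 70.6 CPM in the unoperated libraries and 1397, 1265, 1276 and 2070.2 CPM at 30 days (log2 3.93 ± 0.28, adjusted p 1.57e-08).

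Calcium release and uptake showed one large rise among falls. Of 14 tested calcium handling genes 10 fell and 1 rose (median log2 -1.14), or 3 higher and 10 lower, median -0.65 with library totals. The one that rose was Sln, sarcolipin, the small peptide that uncouples the sarcoplasmic calcium pump, at 9.84, 7.63, 9.55 and 7.38 CPM in the unoperated libraries and 759, 696, 687 and 908 CPM at 30 days (log2 6.47 ± 0.18, adjusted p 4.67e-13). The pump of fast fibres itself, Atp2a1, stood at 44004, 49511, 44669 and 46166 CPM in the unoperated libraries and 7518, 12429.7, 11611 and 9903 CPM at 30 days (log2 -2.15 ± 0.15, adjusted p 5.96e-09). Jph2 and Jph1, the junctophilins that hold the calcium store against the surface membrane, fell (log2 -3.31 and -2.12). Jph2 stood at 596, 613, 578 and 566 CPM in the unoperated libraries and 39.2, 76.9, 65.1 and 55.5 CPM at 30 days, so each library of 30 days held a small share of any control's level.

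Potassium and chloride channel genes fell in 7 of 11 cases and rose in 3 (median log2 -1.03). Clcn1, the chloride channel that stabilises the resting membrane, fell from 221 ± 15.2 to 88.7 ± 16.2 CPM (SD, n = 4 each; log2 -1.32 ± 0.14, adjusted p 7.51e-07). Kcna7, a voltage-gated potassium channel, fell (log2 -2.37), while Kcnq5, another, rose by log2 1.96. In the dystrophin complex and water channel genes 7 of 13 fell and 2 rose (median log2 -0.27), which library totals turned (7 higher and 5 lower, median 0.22). The water channel Aqp4 stood at 285, 308, 237 and 328 CPM in the unoperated libraries and 11.4, 49.6, 40.4 and 32.7 CPM at 30 days (log2 -3.11 ± 0.38, adjusted p 4.12e-06). Nos1, the nitric oxide synthase tethered to the complex, fell (log2 -1.35), and Sgcb, a sarcoglycan (log2 -1.08), whereas Dmd, dystrophin itself, rose by log2 1.28.

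Stretch responsive and Z-disc genes divided, with 5 of 15 higher and 6 lower (median log2 0.13), or 8 higher and 3 lower, median 0.62 with library totals. Over all genes tested, 33.7% were higher and 30.9% lower with TMM factors. Ankrd1, a titin-bound stress protein, stood at 35.2, 41.3, 36.6 and 26.6 CPM in the unoperated libraries and 1844, 937, 963 and 2392 CPM at 30 days (log2 5.46 ± 0.58, adjusted p 1.10e-06). Csrp3, the muscle LIM protein, rose by log2 1.68. Ankrd23 and Ankrd2, relatives of Ankrd1, fell (log2 -1.22 and -1.13), and so did Nrap (log2 -1.15). Among intermediate filament and junction genes, 5 of 11 rose and 4 fell (median log2 0.61). The keratin pair Krt8 and Krt18, best known from simple epithelia, rose together. Krt18 stood at 0.112, 0.0367, 0.134 and 0.144 CPM in the unoperated libraries and 46.9, 19.1, 10.8 and 18.5 CPM at 30 days and Krt8 at 0.281, 0.33, 0.402 and 0.671 CPM in the unoperated libraries and 20.3, 12.3, 8.6 and 12.3 CPM at 30 days. Synm, synemin, a filament protein of the Z-disc, fell from 1892 ± 89.9 to 412 ± 74.3 CPM (SD, n = 4 each; log2 -2.20 ± 0.16, adjusted p 1.03e-08). Cdh1, the epithelial cadherin, averaged 0.837 ± 0.436 CPM at 0 days and 0.342 ± 0.153 CPM at 30 days, and its call as lower (log2 -1.28) was lost with library totals (-0.78), without library 4 of 30 days (-1.03) and without unoperated library 2 (-0.91).

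Satellite cells, the stem cells of muscle, are marked by Pax7, which averaged 1.08 ± 0.164 CPM at 0 days and 0.577 ± 0.249 CPM at 30 days (SD, n = 4; log2 -0.87 ± 0.38, adjusted p 0.0555). It was not called, but it was called lower by DESeq2 (log2 -0.91) and limma-voom (-0.94). Of the 10 tested satellite cell and fusion genes, 4 rose and 2 fell (median log2 0.27), or 7 higher and 2 lower, median 0.77 with library totals. With TMM factors 33.7% of all genes tested rose and 30.9% fell. Tmem8c, myomaker, the membrane protein that lets myoblasts fuse, stood at 0.619, 0.77, 0.803 and 0.383 CPM in the unoperated libraries and 75.2, 30.5, 20.7 and 53.6 CPM at 30 days (log2 6.09 ± 0.45, adjusted p 2.07e-08). Cdon, a surface receptor that promotes differentiation, rose by log2 1.17, whereas Cdh15, M-cadherin, and Des, desmin, fell (log2 -0.87 and -0.75).

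The growth factor and imprinted growth genes rose in 12 of 20 cases and fell in 3 (median log2 0.82). Igf2, fetal insulin-like growth factor, stood at 55.6, 73.2, 66 and 75.3 CPM in the unoperated libraries and 304, 568, 793 and 389 CPM at 30 days (log2 2.93 ± 0.31, adjusted p 8.70e-07). H19, the imprinted noncoding RNA next to it, stood at 10970.4, 6882, 6209 and 6834 CPM in the unoperated libraries and 10451, 27393, 14567 and 8522 CPM at 30 days (log2 0.98 ± 0.32, adjusted p 0.0146), so the groups overlapped. Its call rested on library 2 of 30 days, without which it was log2 0.53 with an edgeR adjusted p of 0.0907. Other imprinted genes rose too, Dlk1 by log2 2.19 and the inhibitor Cdkn1c by log2 2.46, and Igf1 rose by log2 1.21. Genes of growth hormone signalling made up the falls. Cish, a feedback inhibitor that growth hormone induces, stood at 119, 220.3, 134 and 29.7 CPM in the unoperated libraries and 13.6, 26.7, 4.6 and 4.06 CPM at 30 days (log2 -3.33 ± 0.71, adjusted p 0.000903), Ghr, the hormone's receptor, fell (log2 -1.67) and Socs2 (log2 -1.26).

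The best known ligases of atrophy were not called higher at this time. Of 19 tested atrophy ubiquitin ligase and FoxO target genes 5 rose and 11 fell (median log2 -0.55), or 8 higher and 6 lower, median -0.047 with library totals. Fbxo32, the ubiquitin ligase atrogin-1, stood at 69, 38.3, 46.5 and 49.1 CPM in the unoperated libraries and 19.7, 21.3, 13.9 and 17.5 CPM at 30 days. Trim63, encoding MuRF1, stood at 376, 471, 361 and 271 CPM in the unoperated libraries and 550.3, 467, 389.97 and 390.3 CPM at 30 days, with overlapping groups and no call (log2 0.28 ± 0.24, adjusted p 0.309), although library totals made it a rise (0.78). Fbxo30, the MUSA1 ligase, rose from 25.5 ± 1.53 to 119.6 ± 28.1 CPM (SD, n = 4 each; log2 2.23 ± 0.16, adjusted p 8.28e-09). Mstn, myostatin, which restrains muscle growth, stood at 13, 16.6, 11.2 and 13 CPM in the unoperated libraries and 1.17, 2.71, 1.92 and 1.25 CPM at 30 days (log2 -2.91 ± 0.32, adjusted p 1.07e-06), and its antagonist Fst, follistatin, stood at 1.12, 1.28, 0.848 and 0.383 CPM in the unoperated libraries and 35.6, 25.8, 26.2 and 58.3 CPM at 30 days (log2 5.30 ± 0.35, adjusted p 7.97e-09). In all 4 libraries of 30 days Mstn was below and Fst above every control. Foxo4, a FoxO factor, fell (log2 -2.05), and Igfbp5, which binds insulin-like growth factors, rose by log2 1.46.

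Proteasome subunit genes were near balance and depended on the scaling, with 8 of 34 higher and 11 lower (median log2 -0.0062) but 28 higher and 0 lower, median 0.49 with library totals and 14 higher and 7 lower with upper-quartile factors. The largest rises were Psme2 and Psme1 (log2 0.75 and 0.69), the interferon-inducible activator subunits. Lysosome and autophagy genes were level as well, with 9 of 22 higher and 9 lower (median log2 -0.03), or 15 higher and 3 lower, median 0.47 with library totals. The cathepsins Ctss and Ctsk, which macrophages and osteoclasts also make, rose by log2 1.91 and 1.88, and Ctsl1 by log2 0.90. The autophagy regulators Ulk1, Bnip3 and Tfeb fell (log2 -0.95, -0.97 and -0.72).

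Cytosolic ribosomal protein genes rose by small amounts in 35 of 49 cases, and 1 fell (median log2 0.32). Rpl3 and its muscle paralog Rpl3l, which takes its place in adult fibres, moved in opposite directions. Rpl3 stood at 76.7, 86.9, 90.3 and 95.4 CPM in the unoperated libraries and 671, 313, 374 and 627 CPM at 30 days (log2 2.51 ± 0.21, adjusted p 5.11e-08), and Rpl3l at 913, 889, 946 and 918 CPM in the unoperated libraries and 321, 595, 631 and 378 CPM at 30 days (log2 -0.93 ± 0.18, adjusted p 0.000258). Among the libraries of 30 days, 1 and 4 were high for Rpl3 and low for Rpl3l, and 2 and 3 the reverse. Ribosomal protein genes have many processed copies in the genome, and the authors' counting could split their reads, so these values are uncertain.

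Polyamine metabolism genes rose in 4 of 8 cases and fell in 2 (median log2 0.25). Sat1, which starts polyamine breakdown, rose from 28.1 ± 3.61 to 84.5 ± 12.1 CPM (SD, n = 4 each; log2 1.58 ± 0.11, adjusted p 4.39e-09), Odc1, the first enzyme of synthesis, rose by log2 0.62, and Amd1, which supplies the aminopropyl donor, fell (log2 -1.34). Amino acid stress and serine synthesis genes divided, with 8 of 20 higher and 5 lower (median log2 0.16), or 14 higher and 3 lower, median 0.65 with library totals. Atf4, the factor that drives this program, fell from 578 ± 35.1 to 214 ± 22.5 CPM (SD, n = 4 each; log2 -1.44 ± 0.12, adjusted p 3.68e-08), and Chac1, a glutathione-degrading target of it (log2 -2.94). Trib3 was called lower as well (log2 -0.97). Other members of the list did not follow Atf4. Slc7a11 rose by log2 2.71, and Asns and Mthfd2 had log2 fold changes of 1.54 and 1.16. The secreted factors Gdf15 and Fgf21 rose by log2 2.95 and 1.87 yet stayed low, at 1.92 ± 0.632 and 0.551 ± 0.216 CPM (SD, n = 4).

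Of the 17 heat shock and chaperone genes tested, 6 rose and 2 fell (median log2 0.11), or 13 higher and 0 lower, median 0.60 with library totals. Hspb8, a small heat shock protein that helps clear damaged filaments, rose from 596 ± 57.6 to 1539.8 ± 158 CPM (SD, n = 4 each; log2 1.37 ± 0.16, adjusted p 1.50e-06). Antioxidant genes were lower in 9 and higher in 6 of 21 cases (median log2 -0.17), a balance that library totals turned (13 higher and 1 lower, median 0.32). The lower count also dropped to 5 without unoperated library 1 or 3. The metallothioneins Mt1a and Mt2A, which bind zinc and copper and are near-identical enough to share reads, rose by log2 4.91 and 3.48. Mt1a stood at 1.01, 1.83, 1.12 and 1.05 CPM in the unoperated libraries and 85.5, 23.6, 18.4 and 27.5 CPM at 30 days, highest in library 1 of 30 days. Hmox1, heme oxygenase, rose by log2 2.05, and mitochondrial Sod2 fell (log2 -0.98).

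Genes of fuel use were mostly lower with TMM factors. Those of glycolysis, of the citric acid cycle and of the PGC-1 and nuclear receptor list were mostly lower with library totals too. Of 26 tested glycolysis and glycogen genes 23 fell and 1 rose (median log2 -1.15), or 3 higher and 20 lower, median -0.67 with library totals. Pygm, the muscle glycogen phosphorylase, fell from 15818 ± 767 to 3544 ± 1106 CPM (SD, n = 4 each; log2 -2.16 ± 0.18, adjusted p 5.29e-08), Pfkm, phosphofructokinase (log2 -2.07) and the glucose transporter Slc2a4 (log2 -0.88). Slc16a3, which exports lactate, stood at 262, 286, 383 and 256 CPM in the unoperated libraries and 13.7, 37.1, 44.6 and 19.2 CPM at 30 days (log2 -3.37 ± 0.47, adjusted p 1.59e-05). Fbp2, muscle fructose bisphosphatase, stood at 133, 129, 119 and 143 CPM in the unoperated libraries and 15.3, 69.7, 83.5 and 34.9 CPM at 30 days (log2 -1.36), with libraries 1 and 4 of 30 days lowest. The call of Fbp2 was lost with library totals (-0.90).

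All 16 tested members of the list of PGC-1 and nuclear receptor regulators were lower (median log2 -1.04), or 1 higher and 10 lower, median -0.55 with library totals. Rxrg, a retinoid X receptor of muscle, fell from 123 ± 3.89 to 39.4 ± 10.6 CPM (SD, n = 4 each; log2 -1.64 ± 0.17, adjusted p 8.35e-07), and Ppargc1a, PGC-1 alpha, which drives mitochondrial biogenesis (log2 -0.91). Citric acid cycle and pyruvate dehydrogenase genes fell in 19 of 20 cases (median log2 -0.85), or 0 higher and 12 lower, median -0.36 with library totals. Examples were Pdk2, a pyruvate dehydrogenase kinase (log2 -1.55), and Ogdh (log2 -1.45).

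Of the 51 tested respiratory chain genes 30 fell and 3 rose (median log2 -0.36), a direction that library totals turned (18 higher and 6 lower, median 0.12). Cycs, cytochrome c, fell from 1810.2 ± 137 to 745 ± 145 CPM (SD, n = 4 each; log2 -1.28 ± 0.14, adjusted p 9.26e-07), and Sdha, of complex II (log2 -1.10). Some subunits of cytochrome oxidase exist in a liver form and in a heart and muscle form. The liver-type subunits Cox6a1 and Cox8a rose by log2 0.79 and 0.90, but liver-type Cox7a2 was not called higher (log2 -0.17). Muscle-type Cox6a2 had a log2 fold change of -0.34 (0.14 with library totals) and was not called, though DESeq2 and limma-voom called it lower (-0.37 in each). Fatty acid oxidation genes fell in 12 of 22 cases and rose in 1 (median log2 -0.32), which library totals also turned (8 higher and 2 lower, median 0.17). Hadhb, of the trifunctional protein, fell (log2 -0.82), and Decr1, which handles unsaturated fatty acids, rose by log2 0.80.

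Among creatine, adenylate and oxygen buffering genes, 5 of 11 rose and 5 fell (median log2 -0.18), which library totals turned (6 higher and 3 lower, median 0.31). Mb, myoglobin, stood at 11267, 12309.5, 13509 and 14185 CPM in the unoperated libraries and 26864, 23133, 26336 and 26753 CPM at 30 days (log2 1.01 ± 0.14, adjusted p 9.38e-06), and at 30 days it was second in fragments with 2.77% of the total. Isoforms of one enzyme moved in opposite directions here. Ckm, muscle creatine kinase, fell from 34881 ± 2205 to 14382 ± 4691 CPM (SD, n = 4 each), while the brain form Ckb rose by log2 1.07. Ampd1, the muscle AMP deaminase, fell (log2 -1.15), and Ampd3, the form of red cells and of atrophying muscle, rose from 28.6 ± 3.88 to 136 ± 51.4 CPM (SD, n = 4 each; log2 2.25 ± 0.27, adjusted p 3.37e-06). Car3, a carbonic anhydrase of slow fibres and fat, rose by log2 0.89.

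Lipid genes divided, with desaturases among the rises and most storage genes among the falls. Of 16 tested fatty acid desaturation, elongation and synthesis genes 7 rose and 4 fell (median log2 0.28), or 10 higher and 3 lower, median 0.77 with library totals. Scd1, the stearoyl-CoA desaturase that makes oleate, had the largest rise of all genes named by the rule on size, at 6.92, 4.4, 6.51 and 4.07 CPM in the unoperated libraries and 1876, 957, 872 and 1194 CPM at 30 days (log2 7.81 ± 0.37, adjusted p 4.80e-10). The related entry Scd, listed separately, rose from 35.4 ± 4.49 to 236 ± 45.5 CPM (SD, n = 4 each), and reads could have been split between the pair. Fasn, fatty acid synthase, rose by log2 1.01, but Me1, which supplies NADPH to synthesis, fell (log2 -1.62), as did the carbohydrate-responsive factor Mlxipl (-1.51). Srebf1, the factor known to drive many of these genes, was not called (log2 -0.39, and 0.093 with library totals), although it was called lower without library 3 of 30 days (-0.65).

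Lipid droplet and triacylglycerol genes fell in 15 of 21 cases and rose in 3 (median log2 -0.99). Plin2, the coat protein of small droplets, stood at 29.3, 36.4, 27.8 and 35.5 CPM in the unoperated libraries and 176, 134, 124 and 235 CPM at 30 days, with no overlap. Lpin1, a phosphatidate phosphatase of triacylglycerol synthesis, fell from 86 ± 12.9 to 12.2 ± 1.69 CPM (SD, n = 4 each; log2 -2.81 ± 0.16, adjusted p 1.30e-09), and Gpam, the first enzyme of that path (log2 -1.94). Cholesterol synthesis and uptake genes fell in 9 of 20 cases and rose in 6 (median log2 -0.19), which library totals turned (12 higher and 3 lower, median 0.30). The efflux pumps Abcg1 and Abca1, abundant in macrophages, rose by log2 2.64 and 2.20, while Fdft1, squalene synthase, fell (log2 -1.62).

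Most fat cell markers were not called. Of 13 tested adipocyte genes 1 rose, 4 fell and 8 were not called (median log2 -0.54). There were 2 lower with upper-quartile factors, and 2 higher and 2 lower, median -0.055 with library totals. With TMM factors the 30.8% lower lay near the 30.9% over all genes, and the 7.7% higher lay below the 33.7% over all genes. The summed level of the list, over 14 genes in the table, ran from 266 to 315 CPM at 0 days and 178 to 247 CPM at 30 days. Adiponectin, the hormone of fat cells encoded by Adipoq, stood at 3.54, 11.2, 19.6 and 11.1 CPM in the unoperated libraries and 10.3, 17.5, 13.9 and 8 CPM at 30 days, and the groups overlapped. Plin1, the coat of the large droplet of fat cells, stood at 2.02, 8.8, 12.8 and 4.22 CPM in the unoperated libraries and 2.91, 4.8, 3.72 and 1.57 CPM at 30 days (log2 -1.09 ± 0.55, adjusted p 0.08999). It was called lower when unoperated library 1 was left out (log2 -1.38). Lipe, hormone-sensitive lipase, fell (log2 -1.08), and Aqp7, the glycerol channel of fat (log2 -1.70). Cebpa, the factor shared by fat and myeloid cells, was the member that rose (log2 1.27).

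Matrix genes rose broadly. Collagen chain genes rose in 11 of 15 cases and none fell (median log2 0.93). Col1a1, the alpha-1 chain of type I collagen, stood at 74.3, 198, 149.8 and 99.3 CPM in the unoperated libraries and 261, 677, 506 and 363 CPM at 30 days (log2 1.79 ± 0.45, adjusted p 0.00267), while Col1a2 is listed at 0 in every library. Col4a1, of the basement membrane, was not called (0.18) except with library totals (0.66). Matricellular and matrix processing genes rose in 29 of 35 cases and fell in 3 (median log2 1.44), or 32 higher and 1 lower, median 1.93 with library totals. Postn, periostin, which marks activated fibroblasts, stood at 26.5, 45.2, 45.6 and 28.7 CPM in the unoperated libraries and 119, 269, 176 and 143 CPM at 30 days (log2 2.27 ± 0.46, adjusted p 0.000525). Thbs4, a thrombospondin of tendon and injured muscle, rose from 52.2 ± 9.16 to 178 ± 12.9 CPM (SD, n = 4 each), and Timp1, an inhibitor of matrix proteases, by log2 1.81. P4ha1, a prolyl hydroxylase of collagen, fell (log2 -1.33), although its relative P4ha3 rose from near 0 to 1.92 ± 0.394 CPM.

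Fibroblast lineage genes followed the matrix, with 10 of 16 fibro-adipogenic progenitor and fibroblast genes higher and 2 lower (median log2 0.98), or 12 higher and 1 lower, median 1.48 with library totals. Pdgfra, the receptor that defines these progenitors, stood at 9.11, 13.1, 9.28 and 8.38 CPM in the unoperated libraries and 31.1, 29.5, 27.7 and 26.3 CPM at 30 days (log2 1.52 ± 0.18, adjusted p 2.14e-06), with the groups apart. The summed level of the list ran from 709.7 to 1139 CPM at 0 days and 1453 to 1766 CPM at 30 days, and 1 member, Cd34, is listed at 0. Its part in the rise of matrix genes was not tested.

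Tendon, cartilage and bone genes rose in 10 of 11 cases (median log2 1.97), with a summed level of 63.7 to 81.8 CPM at 0 days and 233 to 298 CPM at 30 days. Tnmd, tenomodulin of tendon cells, stood at 3.09, 3.67, 2.54 and 2.87 CPM in the unoperated libraries and 4.15, 11.7, 14.1 and 7.12 CPM at 30 days and Comp, a cartilage and tendon matrix protein, at 1.07, 1.25, 0.892 and 1.25 CPM in the unoperated libraries and 7.01, 12.1, 9.56 and 6.88 CPM at 30 days. Bone and cartilage genes stayed low and uneven. Bglap, osteocalcin of osteoblasts, stood at 2.05, 5.34, 6.88 and 0.523 CPM at 30 days, and Ibsp, bone sialoprotein, at 0.567, 0.807, 2.08 and 0.0804 CPM. Controls had at most 0.112 CPM of Bglap. The part of tendon, cartilage or bone tissue in the samples was not tested.

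Immune genes were mostly higher. All 21 tested macrophage and monocyte genes rose (median log2 1.89), and their summed level ran from 107 to 153 CPM at 0 days and 458 to 556 CPM at 30 days. Gpnmb, a glycoprotein of lipid-laden and phagocytic macrophages, stood at 5.68, 5.76, 6.2 and 7.9 CPM in the unoperated libraries and 79.3, 52.6, 42.8 and 41.3 CPM at 30 days (log2 3.08 ± 0.30, adjusted p 3.46e-07). Mrc1, the mannose receptor of tissue-resident macrophages, stood at 3.65, 6.86, 6.51 and 4.41 CPM in the unoperated libraries and 24.1, 26.9, 18.8 and 18.9 CPM at 30 days, and Trem2, a lipid-sensing receptor, rose from 0.85 ± 0.319 to 3.3 ± 0.292 CPM (SD, n = 4 each). Aif1 and Lgals3, further macrophage markers, rose by log2 2.25 and 1.37. The groups did not overlap for 20 of the 21, against 60.2% of all genes tested.

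Lymphocyte genes were low. Of the 17 T, B and NK lymphocyte genes found, 9 could be tested, and 8 rose and 1 fell, with summed levels of 13.8 to 16 CPM at 0 days and 25.5 to 30.5 CPM at 30 days. Requiring a mean of at least 1 CPM left 2 higher. Cd8a, of cytotoxic T cells, stood at 0.169, 0.22, 0.268 and 0.335 CPM in the unoperated libraries and 1.06, 1.19, 0.72 and 1.49 CPM at 30 days, and Cd3g, of the T cell receptor complex, reached 0.592 ± 0.167 CPM. Granulocyte and mast cell genes rose in 4 of 8 cases, but in 1 without library 1 or 4 of 30 days, in 2 without library 3 of 30 days or unoperated library 1, 3 or 4, and in 8 with library totals. S100a8, of neutrophils and inflammatory monocytes, stood at 0, 0.11, 0.0446 and 0.0958 CPM in the unoperated libraries and 7.72, 1.5, 1.16 and 3.06 CPM at 30 days, with library 1 of 30 days the highest.

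Antigen presentation genes rose in 13 of 14 cases (median log2 2.04). B2m, the light chain of class I molecules, stood at 348, 392, 424 and 387 CPM in the unoperated libraries and 3195, 2108, 1351 and 2538 CPM at 30 days (log2 2.57 ± 0.20, adjusted p 1.99e-08). The class I heavy chains RT1-A1 and RT1-A2, whose near-identical copies can share reads, rose by log2 2.74 and 2.61. Psmb8, an immunoproteasome subunit, rose by log2 2.01, and Cd74, the class II invariant chain, by log2 1.89. The part of the macrophage and monocyte genes' rise in these values was not tested.

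Complement genes rose in 11 of 15 cases and fell in 1 (median log2 1.36). C3, on which the cascade converges, stood at 0.675, 0.697, 0.982 and 0.766 CPM in the unoperated libraries and 11.9, 6.79, 5.2 and 5.55 CPM at 30 days (log2 3.23 ± 0.36, adjusted p 1.34e-06), and C4a and C4b, near-identical copies, rose by log2 2.44 and 1.81. The member that fell was Cd55, which protects host cells from complement, from 105 ± 3.46 to 32.2 ± 5.61 CPM (SD, n = 4 each; log2 -1.70 ± 0.15, adjusted p 8.41e-08). Chemokine and cytokine genes rose in 14 of 21 cases and fell in 2 (median log2 1.66), or 17 higher and 1 lower, median 2.16 with library totals. The summed level of this list did not separate the groups, at 281 to 315 CPM at 0 days and 293 to 310 CPM at 30 days. Most stayed low: Ccl2, which recruits monocytes, rose from 1.21 ± 0.725 to 3.9 ± 1.18 CPM (SD, n = 4 each), and Cxcl13, which attracts B cells, reached 2.84 ± 0.863 CPM. Il15, a cytokine that muscle fibres make, fell from 26.2 ± 4.44 to 9.2 ± 1.35 CPM (SD, n = 4 each; log2 -1.51 ± 0.18, adjusted p 1.95e-06).

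**Figure D3:**
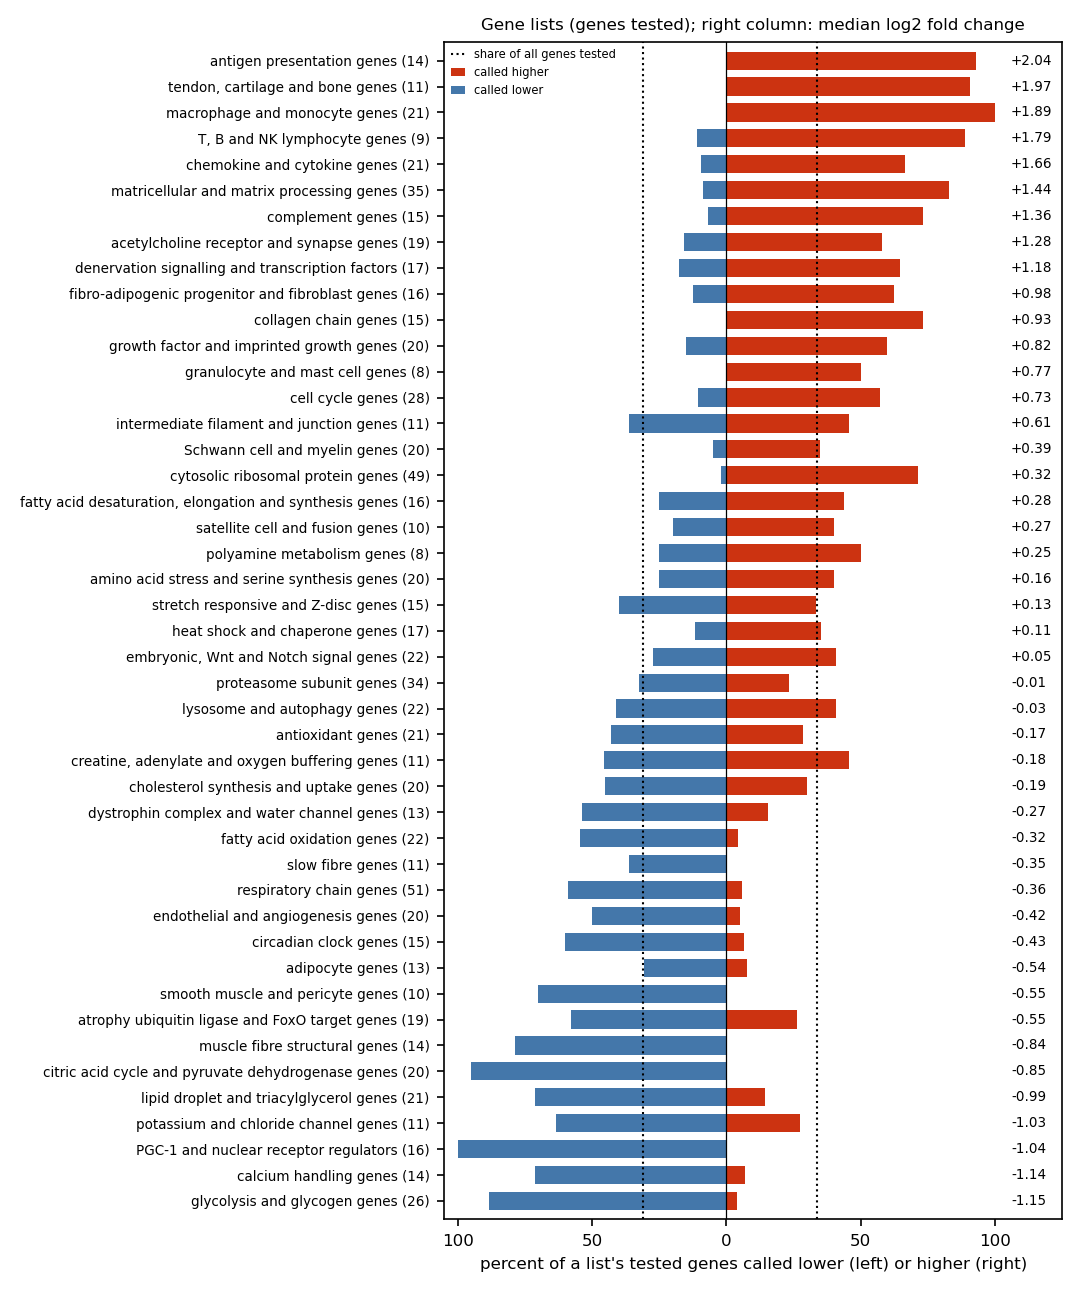
Percent of each list's tested genes called higher (red, right) or lower (blue, left) at 30 days against 0 days, for the 45 lists with at least 8 tested genes, sorted by median log2 fold change (right column), with dotted lines at the shares over all genes, 33.7% and 30.9%. Macrophage and monocyte genes were all higher and PGC-1 and nuclear receptor regulators all lower.

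Of 20 tested Schwann cell and myelin genes 7 rose and 1 fell (median log2 0.39), or 11 higher and 0 lower, median 0.88 with library totals. The share that rose was near that over all genes, and summed levels ran from 105 to 163 CPM at 0 days and 111 to 163 CPM at 30 days. Some genes that Schwann cells switch on once they lose contact with an axon were among the rises, while 12 of the 20 tested were not called. Shh, also on the list, was too low to test, at no more than 0.281 CPM at 0 days and 0.0402 CPM at 30 days. Ngfr, the p75 neurotrophin receptor, stood at 0.45, 0.99, 0.446 and 0.24 CPM in the unoperated libraries and 9.32, 4.89, 3.72 and 2.9 CPM at 30 days (log2 3.23 ± 0.41, adjusted p 5.89e-06), and Gap43 rose by log2 1.41 and the trophic factor Gdnf by log2 2.52. Mbp, myelin basic protein, was not called (log2 0.15).

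Vessel genes were mostly lower with TMM factors. Endothelial and angiogenesis genes fell in 10 of 20 cases and rose in 1 (median log2 -0.42), which library totals turned (6 higher and 3 lower, median 0.066). Pecam1, which defines endothelium, was not called (log2 -0.10, and 0.40 with library totals). The receptor Flt1 fell from 48.4 ± 2.03 to 20.2 ± 0.731 CPM (SD, n = 4 each; log2 -1.26 ± 0.12, adjusted p 1.87e-07), and the ligands Angpt1 and Angpt2 (log2 -1.37 and -1.12). Smooth muscle and pericyte genes fell in 7 of 10 cases (median log2 -0.55), against 1 higher and 2 lower, median -0.055 with library totals. Rgs5, a pericyte marker, stood at 53.8, 63.8, 57.7 and 54.2 CPM in the unoperated libraries and 16, 16.7, 13.9 and 15.6 CPM at 30 days (log2 -1.88 ± 0.13, adjusted p 3.91e-09), and Acta2 of smooth muscle was not called (log2 -0.28, and 0.21 with library totals), except when only the compared groups were fitted (-0.29). Erythrocyte genes summed to 652 to 2104 CPM at 0 days and 297 to 754 CPM at 30 days, the top value coming from unoperated library 3.

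Circadian clock genes fell in 9 of 15 cases and rose in 1 (median log2 -0.43), and library totals turned the sign of the median but not of the counts (3 higher and 6 lower, median 0.063). The hour of sampling is not given in the sources used here. Per1, a light- and stress-induced clock gene, fell from 123 ± 29.8 to 35.6 ± 7.15 CPM (SD, n = 4 each; log2 -1.79 ± 0.31, adjusted p 0.000114), and Arntl, the core activator, was not called (log2 -0.26, and 0.23 with library totals). Embryonic, Wnt and Notch signal genes rose in 9 of 22 cases and fell in 6 (median log2 0.053), or 12 higher and 2 lower, median 0.55 with library totals. With TMM factors the list's shares of 40.9% and 27.3% lay near the 33.7% and 30.9% over all genes. The secreted Wnt inhibitors Sfrp2 and Sfrp1 rose by log2 3.32 and 2.02, and Tgfb2, a profibrotic ligand, by log2 1.79. Wnt4 fell (log2 -2.18), and so did Dkk2, another secreted Wnt regulator (log2 -1.17).

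Several of the largest changes lay outside these lists. Dclk1, a microtubule-binding kinase best known from neurons and tuft cells, stood at 4.89, 4.77, 5.84 and 5.41 CPM in the unoperated libraries and 1125, 382, 377 and 879 CPM at 30 days (log2 7.04 ± 0.43, adjusted p 3.27e-09). Nsg2, a neuronal vesicle protein, stood at 0.281, 0.367, 0.223 and 0.0958 CPM in the unoperated libraries and 41.8, 3.89, 4.44 and 35.8 CPM at 30 days, with libraries 1 and 4 of 30 days far above 2 and 3. Slc51a, a subunit of the bile acid and steroid transporter, rose from 0.987 ± 0.416 to 90.5 ± 16.1 CPM (SD, n = 4 each). Tac4, a tachykinin peptide gene, and Il22ra2, a soluble decoy receptor of interleukin 22, rose by log2 6.80 and 6.11 from levels near the 3-fragment floor, which ran from 0.0712 to 0.169 TMM-scaled CPM in these 8 libraries. Anxa8, an annexin, rose by log2 6.10, and Klk1c7, a kallikrein of a family of close copies that can share reads, by log2 5.62.

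On the side of the falls, Cacng7, a calcium channel subunit, dropped from 11.5 ± 0.579 to 0.572 ± 0.167 CPM (SD, n = 4 each; log2 -4.33 ± 0.21, adjusted p 2.96e-10). Unc5a, a netrin receptor, fell (log2 -4.32). Lmod1, a leiomodin that nucleates actin filaments in smooth muscle, stood at 130.2, 165, 105 and 179 CPM in the unoperated libraries and 8.75, 8.76, 7.6 and 5.63 CPM at 30 days (log2 -4.23 ± 0.34, adjusted p 5.90e-08). Pfkfb3, which sets the level of the activator of glycolysis, fell (log2 -3.51), and Mss51, a muscle gene that restrains mitochondrial metabolism, fell from 519 ± 93.9 to 59.2 ± 15.6 CPM (SD, n = 4 each). Adcy9, an adenylyl cyclase, and Sema7a, a membrane-bound semaphorin, fell (log2 -3.28 and -3.20).

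A smaller set of genes had its highest or lowest level at 30 days. Against 10 days, 23% of the genes tested were higher at 30 days and 24.3% lower, and against 60 days 12.4% were higher and 10.3% lower. Higher than in each of the other 3 groups were 174 genes (1.49%), and lower than in each were 177 (1.52%). Without library 1 of 30 days these counts were 99 and 114. At an adjusted p under 0.01 they were 67 and 65. The comparisons share the 30-day libraries, so the values are set side by side and are not independent.

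S100a3, a calcium-binding protein, averaged 0.803 ± 0.0893 CPM in unoperated muscle and 2.52 ± 0.683, 66.4 ± 45.7 and 3.12 ± 1.89 CPM at 10, 30 and 60 days (SD, n = 4). Its 30-day level was above that of 10 days (log2 4.72 ± 0.51, adjusted p 3.76e-06) and 60 days (log2 4.39 ± 0.51, adjusted p 4.70e-05). Ctxn3, cortexin 3, followed the same course at 1.83 ± 0.333, 15.6 ± 6.06, 118 ± 45.6 and 14.8 ± 3.47 CPM. Tmem8c averaged 15.7 ± 3.84 CPM at 10 days and 1.77 ± 0.697 at 60 days, so myomaker, too, was highest at 30 days. Mybph averaged 669.8 ± 146 and 402 ± 62.3 CPM at those times, both below its 30-day level. Gbp5, an interferon-induced guanylate-binding protein, was 29 ± 7.97 CPM at 30 days against 9.11 ± 2.14 and 9.83 ± 1.85 CPM. Other genes of the peak group were Slco4a1, a thyroid hormone and anion transporter, the S100 protein S100a13 and the heme-binding Hebp2.

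Among list members in the peak group were Mb, Igf2, Sln, Cdon, RT1-A1 and Psmb8, chosen here after their values were seen. Igf2 averaged 285 ± 96.9 CPM at 10 days and 182 ± 46.4 at 60 days. Mb averaged 18159 ± 2077 CPM at 10 days and 17970.1 ± 3328 at 60 days against 25772 ± 1774 at 30 days.

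On the low side, Ovol1, a zinc finger factor, averaged 15.2 ± 0.9 CPM in unoperated muscle and 14 ± 1.31, 4.01 ± 0.532 and 8.69 ± 1.15 CPM at 10, 30 and 60 days. Its fall against 10 days was log2 -1.81 ± 0.12, adjusted p 3.14e-08, and against 60 days log2 -1.12 ± 0.12, adjusted p 1.32e-05. Zbtb16, the PLZF factor that glucocorticoids induce, averaged 22.3 ± 7.04, 9.55 ± 2.12, 4.59 ± 1.45 and 11.3 ± 5.98 CPM in the same order. Phospho1, a phosphatase of mineralising tissue that muscle also expresses, averaged 549 ± 22.4, 191 ± 49, 107 ± 36.3 and 202 ± 17.8 CPM. Mllt3, Synpo, Eif4g3 and Wnk2 met the same criteria, and so did Ces1d, whose call against 0 days was lost with library totals (-0.52).

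**Figure D4:**
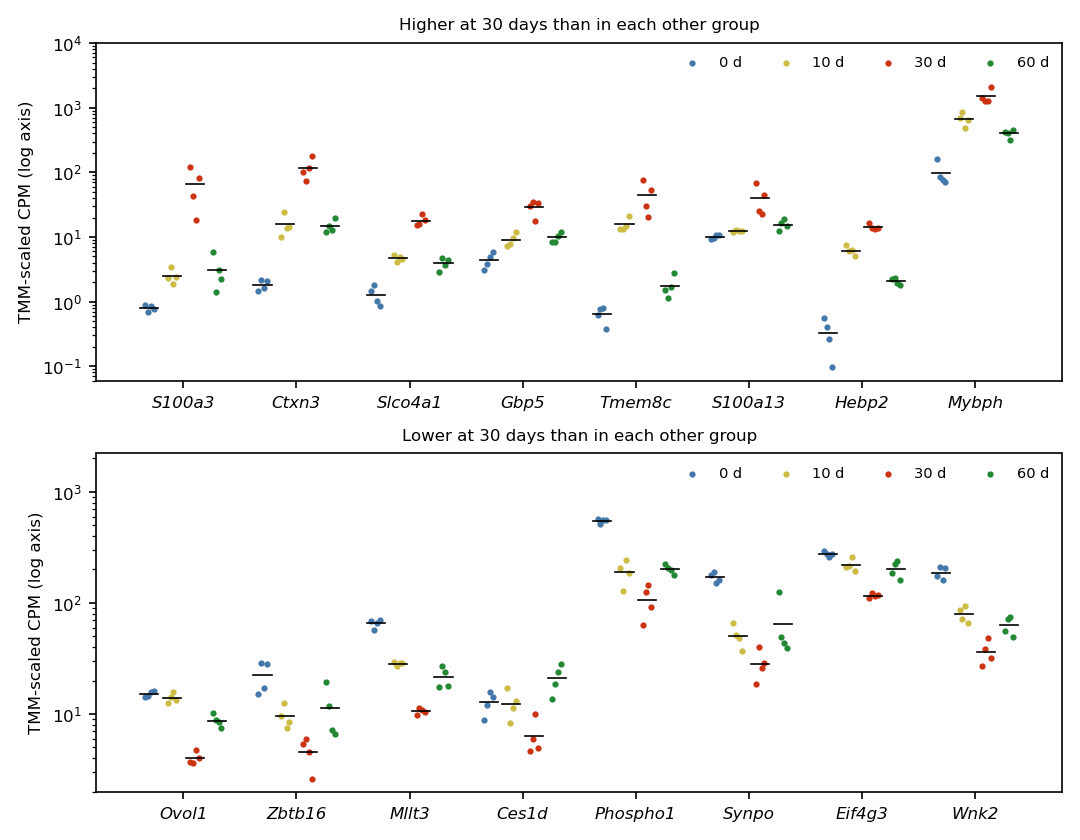
TMM-scaled CPM (log axis) of the 8 genes with the clearest 30-day high (top) and the 8 with the clearest 30-day low (bottom), as points for the 4 libraries of each group and lines at group means. S100a3 averaged 66.4 ± 45.7 CPM at 30 days and 3.12 ± 1.89 at 60 days, and Ovol1 4.01 ± 0.532 and 8.69 ± 1.15 CPM.

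The 4 libraries of 30 days differed among themselves, and several of the genes named here divided them in the same way. Ranked by the SD of log2(CPM + 0.5) among them, with a mean of at least 20 CPM, the most uneven genes included Myh6, RT1-Bb, Nsg2, S100a3, Spp1, Chrng and Fbp2. Myh6, cardiac alpha-myosin, and RT1-Bb, a class II gene, were also uneven at 0 days, with SDs of 2.28 and 1.54 there, and RT1-Bb had 2.03 at 30 days. Chrng (0.03 at 0 days and 1.13 at 30 days), Nsg2 (0.23 and 1.78) and Fbp2 (0.11 and 1.10) were even at 0 days and uneven at 30 days. Libraries 1 and 4 were above libraries 2 and 3 for Chrng, Chrna1, Dclk1, Tmem8c, Actc1 and Rpl3, and below them for Igf2, Slc16a3, Fbp2 and Rpl3l. The genes listed for this split were picked after their values were seen, and how many of all genes share it was not counted. Over all genes tested, library 4 had about the same Pearson correlation with library 1 (0.9911), library 2 (0.9912) and library 3 (0.9909). Dclk1 stood at 1125, 382, 377 and 879 CPM in the 30-day libraries 1 to 4. What separates these libraries is not given in the sources used here. Spp1, osteopontin, stood at 54.6, 18.6, 9.56 and 9.17 CPM, and it did not follow the split of libraries 1 and 4 from 2 and 3.

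**Figure D5:**
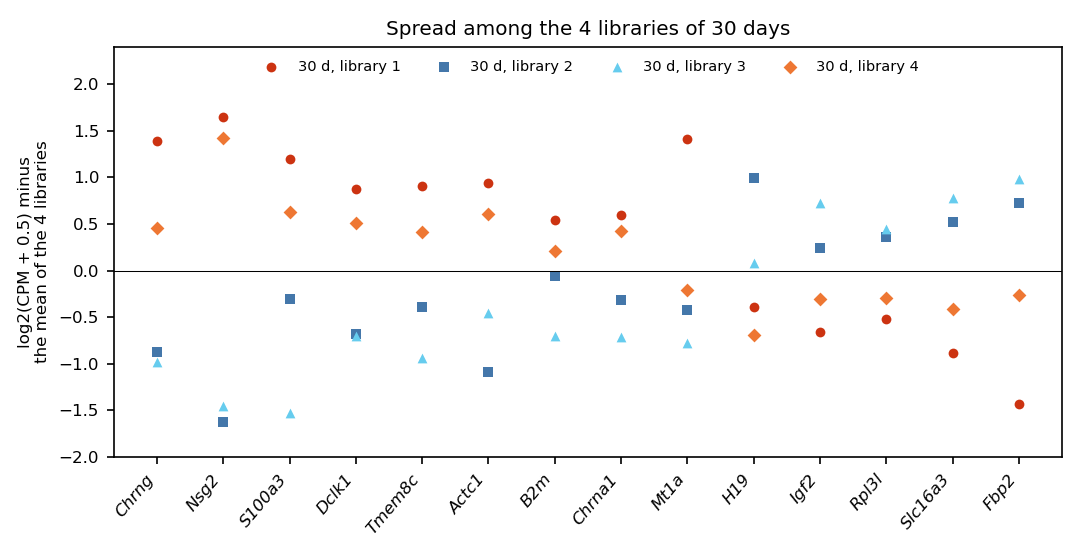
Deviation of each 30-day library from the mean of the 4, in log2(CPM + 0.5), for 14 genes chosen after their values were seen. Libraries 1 and 4 lie above 0 for Chrng and Chrna1 and below it for Igf2, Fbp2 and Rpl3l.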

How the data were processed

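Messenger RNA was measured in 16 libraries of rat supraspinatus, 4 each at 0, 10, 30 and 60 days. Per the labels' protocols, a miRNeasy kit served for isolation and an Illumina TruSeq mRNA kit for library preparation. The submitters' processing notes name bcl2fastq 1.8.4, FastQC, TopHat2 2.0.9, Bowtie2 2.1.0.0, Cufflinks, Cuffdiff 2.1.1 and the build rn5. The authors deposited 1 table of expected counts, which are raw fragments per gene and library, not scaled for depth or length, per the file headers and values. Strandedness, the annotation and filters are not given in the sources used here.

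Expected counts were rounded (233 of 17147 genes have fractional values). Genes passing filterByExpr by group were tested, which left 5489 untested. The edgeR quasi-likelihood test used TMM factors, robust estimation and 1 model of the 4 groups over all 16 libraries, with no covariate and with Benjamini-Hochberg adjustment over 11658 genes. An SE is the size of a log2 fold change divided by the square root of F. In values of all 4 libraries, libraries are in the order 1 to 4, which names them and carries no order.

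The 47 gene lists hold 907 distinct genes, of which 861 are in the table and 824 were tested. The comparison and the lists were chosen with earlier results of these data known, so list counts are descriptions, read against the shares over all genes. Genes named are the 15 largest rises and 15 largest falls (mean of at least 5 CPM, no overlap, adjusted p under 0.05), anchors of each list with its 3 largest called rises and falls, the 8 clearest highs and lows of 30 days, the 10 genes with the most fragments per group and the 8 most variable at 30 days. Chrnb1, Etv5 and Col1a2 were named outside this rule after their values were seen. Some genes that the rule names are not reported here.

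In simulated data 160 of 200 genes changed 2-fold were called. There were 7 calls among the unchanged genes of the 11523 tested and 0 calls where nothing was changed. Only those 200 genes were changed, as many up as down, whereas 64.6% of the genes tested were called in the data themselves. The simulation thus does not test the calls under so broad a change. Alternatives were RLE and upper-quartile factors, library totals, DESeq2, limma-voom, no filter, a mean of at least 1 CPM, the compared groups alone, no robust estimation, an adjusted p under 0.01, a replicate block, the title letter as covariate and leaving out each library. The versions were DESeq2 1.42.0, limma 3.58.1 and edgeR 4.0.16 under R 4.3.3, and matplotlib 3.10.9 under python 3.11.15. The floor of 3 fragments covers counting error only, since fragments copied by PCR are not independent molecules.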

Additional observations from a re-analysis of the deposited data

Results flagged for a closer look

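Some values stood apart from the other 3 libraries of their group by a gap, as a share of the group's range, above Dixon's 95% critical value for 4 values. This was so for 24 of 440 groups of 4 libraries tested (5.45%), where chance gives about 1 in 20, so single cases carry little weight. At 30 days, library 1 was the far one for Mt1a (85.5 CPM), Mt2A (67.6 CPM), Myod1 (272 CPM), Bnip3 (357 CPM) and Pfkfb3 (7.02 CPM). Library 2 of 30 days was far from the others for Atf3 (76.9 CPM), Mb (23130 CPM) and Mss51 (82.3 CPM), and it also had the largest total, 39.9 M fragments. Library 4 of 30 days was the far one for Mybph (2070 CPM) and Trem2 (3.74 CPM). Among the unoperated libraries, library 1 stood apart for C4b (10.01 CPM), Cd74 (35.5 CPM), Cdon (5.96 CPM), H19 (10970 CPM) and Mybph (163 CPM). Unoperated library 2 did for Ckb (18.1 CPM), Col4a1 (184 CPM), Gdf15 (0.514 CPM), Mt1a (1.83 CPM) and Mt2A (4.18 CPM), and unoperated library 4 for Cd55 (99.6 CPM), Dmd (42.01 CPM) and Srebf1 (211 CPM).

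Effects that differed between times were found by testing 30 days against the other time itself. Called in opposite directions against 0 days at 30 and 10 days, and different between those times, were 290 genes, and 49 for 30 and 60 days. Fbxo32 was log2 -1.48 at 30 days and higher at 10 days. Nos1 was -1.35 at 30 days and higher at 10 days, and Cox6a1 was 0.79 at 30 days and lower at 10 days. Ces1d was -1.01 at 30 days and higher at 60 days, whereas Igfbp5 was 1.46 at 30 days and lower at 60 days.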

How the results depend on the processing

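The number of genes changed was 7533, and between 6975 and 7590 with DESeq2 (7587), limma-voom (7496), the compared groups alone (7481), no filter (7590), a mean of at least 1 CPM (6975), and the title letter (7433). With library totals 7362 genes were higher and 1392 lower, and at an adjusted p under 0.01 the 30-day highs and lows numbered 67 and 65. Leaving out 1 library at a time gave 6995 to 7793 changed genes, 3605 to 4057 higher and 3362 to 3736 lower. In those fits the 30-day highs numbered 99 to 198 and the lows 114 to 231, both lowest without library 1 of 30 days. The replicate block, which uses the suffix of each column, gave 7474 changed genes (3889 higher, 3585 lower), 170 highs and 164 lows. Whether the suffixes pair the samples is not given in the sources used here. The deviations of same-suffix libraries of 0 and 30 days correlated at 0.06 to 0.12 across genes. Libraries of different suffixes were not compared in this way, so these values do not decide the question.

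Medians turned with library totals for slow fibre genes (0.14), antioxidant genes (0.32), circadian clock genes (0.0626), cholesterol synthesis and uptake genes (0.30), fatty acid oxidation genes (0.17), respiratory chain genes (0.12), creatine, adenylate and oxygen buffering genes (0.31), endothelial and angiogenesis genes (0.0661), dystrophin complex and water channel genes (0.22), proteasome subunit genes (0.49) and lysosome and autophagy genes (0.47). So did Pvalb (0.31), Pecam1 (0.40), Etv5 (0.39), Acta2 (0.21), Arntl (0.23), Cox6a2 (0.14) and Srebf1 (0.0931), which were not called with TMM factors. With upper-quartile factors Pecam1 (0.0255) and Etv5 (0.0171) turned too, and Adipoq, not called in any of these fits, ran from -0.15 without unoperated library 1 to 0.53 without unoperated library 3, and was -0.0903 without library 2 of 30 days. Library totals carry no factor for the smaller share of the most abundant genes at 30 days. Of 216 tested genes named and followed under the alternatives, 198 kept their direction and their side of the threshold under every alternative that gave them a value. Of the 216, 8 had no value under at least 1 alternative, such as a mean of at least 1 CPM. Ankrd2, Asns, Cdkn1b, Cox7a2, Dkk2, Mthfd2, Slc7a11 and Trib3 were not among the 216, and their values under the alternatives are not given here. Depth limits genes under about 0.169 TMM-scaled CPM, the highest 3-fragment floor among the libraries of these groups.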
